A study of Mus musculus with 16 samples.

Results

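The cell cycle inhibitors Cdkn1a, Cdkn1b, Cdkn1c and Cdkn2c, the stress genes Gadd45a, Gadd45b and Gadd45g, and the p53 gene Trp53 were followed through 16 ATAC-seq libraries of mouse neural stem and progenitor cells. The 8 genes were found by matching the Entrez gene IDs of the deposited count tables to symbols, out of 20113 promoter windows of 2001 bp and 20113 windows of 1001 bp lying past the end of a transcript (called gene ends). Each gene had 1 window of each kind. In ATAC-seq a transposase cuts and tags DNA where chromatin is open, so the reads in a window follow its accessibility. The comparisons ask how accessibility changes when KAT6B, a histone acetyltransferase, is lost or gained.

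The cells came from the dorsal telencephalon, which forms the neocortex, of E12.5 embryos and were grown as neurospheres, and 50000 of them were mixed with 50000 Drosophila S2 cells per library. KO stands for 4 Kat6b-/- embryos on C57BL/6, and its controls were 4 wild-type (WT) embryos on C57BL/6. Tg stands for 4 hybrid embryos (FVB x BALB/c) that carried the Tg(Kat6b) transgene, and its controls were 4 WT embryos of the same hybrid (WT FVB x BALB/c, or hybrid WT). The series' design text states that the transgene is not viable on C57BL/6, so loss and gain were studied on different backgrounds and share no library. The labels do not give the deleted part of Kat6b, the promoter that drives the transgene, the number of transgenic lines, or the sex and litter of the embryos. Each library is a culture measured as a whole, so more cells with an open window and a more open window in each cell cannot be told apart.

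Progress through the cell cycle depends on cyclin-dependent kinases bound to cyclins. CDKN1A (p21), CDKN1B (p27) and CDKN1C (p57) form the CIP/KIP family, which binds and restrains several cyclin-kinase complexes, while CDKN2C (p18) belongs to the INK4 family and binds CDK4 and CDK6. In the developing cortex p27 and p57 are known for their part in the exit of progenitors from the cycle. The transcription factor p53 is stabilised by DNA damage and other stress and switches on target genes that include Cdkn1a and Gadd45a. The GADD45 proteins are small stress-induced proteins that bind PCNA, CDK1 and the kinase MAP3K4, and thereby link damage to growth arrest and to p38 and JNK signalling.

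Start-site sequences are shown for the 3 Gadd45 genes, whose promoters moved unequally in Tg, for Trp53, whose gene end moved most, and for the 2 annotated starts of Cdkn1a, the gene called in KO. They run from 250 bases before to 50 bases after the start, 5′ to 3′ on the gene's own strand, from RefSeq (GRCm38.p6), whose coordinates differ from the mm39 build of the counts. Capitals mark matches on either strand to 5 motifs: CCAAT, bound by NF-Y, GGGCGG, the GC box of SP1 and its relatives, TATAAA, the TATA box, CACGTG, an E-box of MYC and USF factors, and TGACGT, the core of the cAMP response element. None of these motifs overlaps another in the sequences shown. Where the 2001-bp count windows lie around the start is not given in the sources used here.
Gadd45a: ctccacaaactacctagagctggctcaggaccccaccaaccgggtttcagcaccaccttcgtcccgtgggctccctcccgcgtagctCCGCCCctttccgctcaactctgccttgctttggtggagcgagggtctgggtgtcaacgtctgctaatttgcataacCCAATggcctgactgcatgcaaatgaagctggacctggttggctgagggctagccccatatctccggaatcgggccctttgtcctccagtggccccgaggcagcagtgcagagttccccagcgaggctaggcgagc
Gadd45b: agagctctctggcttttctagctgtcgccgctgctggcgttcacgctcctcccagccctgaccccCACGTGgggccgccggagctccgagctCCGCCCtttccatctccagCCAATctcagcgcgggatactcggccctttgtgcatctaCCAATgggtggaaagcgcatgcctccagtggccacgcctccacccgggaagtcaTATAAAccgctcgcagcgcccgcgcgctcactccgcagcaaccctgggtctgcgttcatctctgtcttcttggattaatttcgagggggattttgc
Gadd45g: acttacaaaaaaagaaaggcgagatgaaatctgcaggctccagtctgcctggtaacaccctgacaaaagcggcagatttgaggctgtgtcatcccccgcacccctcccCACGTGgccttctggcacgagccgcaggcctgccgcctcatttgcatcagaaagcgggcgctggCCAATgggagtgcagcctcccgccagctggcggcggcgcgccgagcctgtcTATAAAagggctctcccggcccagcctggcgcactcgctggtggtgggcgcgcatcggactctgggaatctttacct
Trp53: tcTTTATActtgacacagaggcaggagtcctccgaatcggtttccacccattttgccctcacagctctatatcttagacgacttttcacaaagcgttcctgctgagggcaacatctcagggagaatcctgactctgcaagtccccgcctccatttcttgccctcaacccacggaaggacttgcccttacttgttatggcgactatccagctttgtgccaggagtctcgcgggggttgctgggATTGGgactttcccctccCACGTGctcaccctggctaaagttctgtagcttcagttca
Cdkn1a start 1: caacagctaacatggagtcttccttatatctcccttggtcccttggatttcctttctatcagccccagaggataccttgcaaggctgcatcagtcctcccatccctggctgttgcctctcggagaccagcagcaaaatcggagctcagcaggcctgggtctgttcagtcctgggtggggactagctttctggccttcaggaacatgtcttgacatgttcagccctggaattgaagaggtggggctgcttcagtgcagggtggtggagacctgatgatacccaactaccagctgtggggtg
Cdkn1a start 2: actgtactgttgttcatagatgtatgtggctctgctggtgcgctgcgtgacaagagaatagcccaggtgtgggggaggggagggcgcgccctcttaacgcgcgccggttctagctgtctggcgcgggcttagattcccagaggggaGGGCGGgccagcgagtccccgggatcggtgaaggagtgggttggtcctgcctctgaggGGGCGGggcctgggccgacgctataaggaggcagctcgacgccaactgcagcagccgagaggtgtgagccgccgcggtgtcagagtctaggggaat

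The windows shown are chr6:67037358-67037657 on the minus strand for Gadd45a, chr10:80929841-80930140 on the plus strand for Gadd45b, chr13:51846425-51846724 on the plus strand for Gadd45g and chr11:69580109-69580408 on the plus strand for Trp53. The Cdkn1a starts are chr17:29090729-29091028 and chr17:29093519-29093818, both on the plus strand. They lie 2790 bases apart, more than a window of 2001 bp spans, so a single count window cannot hold both. Cdkn2c also has 2 listed starts, 1384 bases apart. In all, 7 of the 8 genes were found in the table of 32851 promoters, with 9 starts.

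CCAAT stood, among the sequences shown, in the Gadd45a promoter at -86 (counted from the start), in Gadd45b at -139 and -100, in Gadd45g at -78 and in Trp53 at -8, and 37.4% of all promoters in the table held it. CACGTG stood in Gadd45b at -185, in Gadd45g at -142, in Trp53 at 11 and in the second Cdkn2c window, not shown, at 35, against 7.15% of all promoters. These letters are not in the windows of Gadd45a, Cdkn1b or Cdkn1a, nor in the first of Cdkn2c. TATAAA stood in Gadd45b at -46, in Gadd45g at -27 and in Trp53 at -248, against 13.6% of all promoters. GGGCGG stood in Gadd45a at -163, in Gadd45b at -158 and in the second Cdkn1a window at -104 and -46, against 35.7% of all promoters. Of the windows not shown, Cdkn1b held it at -61 and the first of Cdkn2c at -95, -51, -40 and 37. TGACGT, held by 7.51% of promoters, matched none of the 9 windows. The first Cdkn1a window was poor in CpG, with 0.0892 of the CpG expected from its bases, and the second held 0.786, against a median of 0.384 over the table. Cdkn1b, at 1.04, had the highest value of the 9. A match is a run of letters, and whether any factor was bound was not measured.

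Library totals ran from 1384643 to 5015408 counts at promoters and from 198347 to 489743 at gene ends. Tg libraries were the deepest, with 4023140 to 5015408 promoter counts against 1384643 to 3101439 in WT FVB x BALB/c. Counts over enhancer regions of chromosome Y were 0.458 to 9.01 CPM, the count scaled to a common library size, in Tg and 48.6 to 61.3 in WT FVB x BALB/c, so the Y signal and the genotype cannot be told apart in that comparison. In KO it was 34.15 to 42.0 CPM, against 38.9 to 48.4 in WT C57BL/6, and at promoters of that chromosome the groups did not overlap, with 199.6 to 252.8 CPM in KO against 276.2 to 368.8 in WT C57BL/6. Its gene ends held 3014 to 3744 CPM in KO against 4583 to 5002 in WT C57BL/6, so the Y signal cannot be told apart from the genotype there either. All 8 genes lie on autosomes. The Kat6b promoter held 3175 ± 309 CPM in Tg and 230 ± 5.39 in WT FVB x BALB/c (SD, n = 4 each) and 298 ± 2.12 in KO and 273 ± 22.9 in WT C57BL/6. Of 10 neural stem and progenitor marker promoters, 8 were called higher and 1 lower in Tg, where 26.9% of all promoters were higher and 30.5% lower (62.9% and 10.5% in the class of highest level). In Tg the calls higher and lower were 1 and 2 of 6 for neuron markers, 1 and 3 of 6 for erythroid, 0 and 2 of 6 for both microglial and endothelial, and 0 and 1 of 6 for mesenchymal markers. In KO they were 1 and 0 of 10 for neural stem markers, 1 and 0 of 6 for microglial, 1 and 1 of 6 for endothelial, and 0 and 1 of 6 for both erythroid and mesenchymal markers, beside 3.99% of all promoters called. The summed level of the neural stem and progenitor markers was 1299 to 1389 CPM in Tg against 915 to 982 in WT FVB x BALB/c, and 1244 to 1291 in KO against 1128 to 1189 in WT C57BL/6. Per gene these markers averaged 94.7 to 136 CPM in the 4 groups, and no marker promoter of any list was at 0 in any group. The 6 endothelial markers averaged 16.3 to 19.4 CPM per gene, the 6 erythroid markers 11.9 to 14.7, the 6 microglia and leukocyte markers 7.48 to 10.1 and the 6 mesenchymal markers 34.2 to 39.8. The 6 neuron markers summed to 208 to 223 CPM in Tg against 206 to 236 in WT FVB x BALB/c, and to 211 to 239 in KO against 255 to 284 in WT C57BL/6, with 2 called lower and none higher in KO, beside 1.9% of all promoters called lower, and with 0 called when gene-end library sizes were used. In hybrid WT against WT C57BL/6, the calls higher and lower were 1 and 7 of 10 for neural stem markers. They were 0 and 2 of 6 for neuron, 1 and 0 of 6 for microglial and 1 and 3 of 6 for mesenchymal markers. For both endothelial and erythroid markers they were 0 and 0 of 6, beside 6.98% of all promoters higher and 11.8% lower. The hybrid WT is also the control of Tg. The part of these markers in the results below was not tested.

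Promoters of the 8 genes were called more often between Tg and its WT than in KO or between the backgrounds. The same held over all promoters, with 57.3% called in Tg, 3.99% in KO and 18.7% between the backgrounds. In Tg libraries 6 of 8 promoters were called higher (Gadd45b, Trp53, Gadd45g, Cdkn1c, Cdkn1b and Cdkn2c), and Cdkn1a was not called. Gadd45a was called lower with the TMM scaling used throughout (-0.24), but stood at 0.19 (adjusted p = 0.113) with the library sizes of the gene ends, and Cdkn2c at -0.01 (adjusted p = 0.948) with offsets that follow abundance. A call is an adjusted p under 0.05 in edgeR's quasi-likelihood test over all 20008 promoters tested, of which 57.3% were called in Tg, 26.9% higher and 30.5% lower. The median log2 change of the 8 was 0.55, against -0.10 over all promoters, and 0.36 with offsets that follow abundance. The value over all promoters covers all levels, and no median was taken for promoters of like level. At 7 of the 8, the values of the 4 Tg libraries and the 4 WT libraries did not overlap, as at 45.3% of all promoters. When counts were drawn down to an equal total per library, 6 of the 8 were again called higher and 1 lower.

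Changes in Tg followed the level of a promoter, so the counts are read within levels. By mean level over the 16 libraries, Cdkn1b, Cdkn2c, Gadd45a, Gadd45b, Gadd45g and Trp53 were in the highest of 4 equal classes of promoters, where 62.9% were called higher and 10.5% lower in Tg. Of these 6 genes 5 were called higher and 1, Gadd45a, lower (0.19 with gene-end library sizes). Cdkn1c was in the next class, with 38.9% called higher and 20.1% lower, and Cdkn1a was at the 45.4 percentile. Scaling moved all promoters together: the median log2 change over all promoters was -0.10 with TMM factors, -0.21 with library totals and 0.32 with gene-end library sizes, and the share of calls in Tg that were higher was 46.9%, 31.1% and 88.6% under these 3 scalings.

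**Figure D1:**
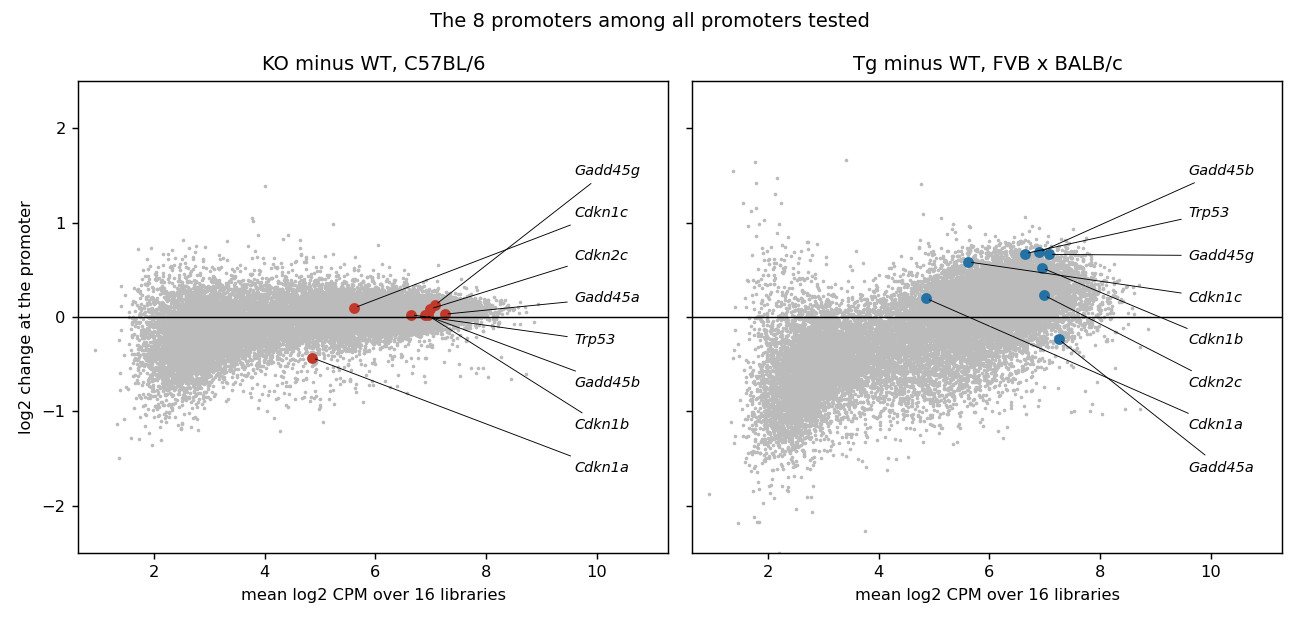
log2 change at each promoter (vertical axis) against its mean log2 CPM over the 16 libraries (horizontal axis), KO minus WT on the left and Tg minus WT on the right, with all 20008 tested promoters in grey and the 8 genes in colour. The 8 genes lie near 0 in KO except Cdkn1a at -0.43, and within the rising cloud in Tg, where Gadd45a is at -0.24 and turns to 0.19 with gene-end library sizes, and Cdkn2c at 0.23 turns to -0.01 with offsets that follow abundance; 1 promoter in KO and 9 in Tg lie beyond the axis limit of 2.5.

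In KO libraries 1 of 8 promoters was called, Cdkn1a, which was lower. Over all promoters 3.99% were called in KO, and 1.9% were lower. None of the 8 was called higher by edgeR, and 1 was higher at an unadjusted p under 0.05 (Gadd45g, adjusted p = 0.289); DESeq2 called 0 and limma voom called 1 of the 8, and neither called one higher. The median log2 change of the 8 was 0.03, against -0.01 over all promoters. The difference between the Tg and KO effects, tested as a contrast of its own, was called positive for 6 genes and negative for Gadd45a (-0.26, but 0.08 with gene-end library sizes), with Cdkn2c not called except with gene-end library sizes (0.49, adjusted p = 0.00453). With libraries thinned to equal depth 4 of these 7 calls were made, and those of Cdkn1a (adjusted p = 0.0528), Cdkn1c (0.181) and Gadd45a (0.253) were not. Among all promoters 29.6% were called in this contrast, 17% positive and 12.6% negative. These shares were not split by level, while most of the 8 genes lie in the highest class of level.

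The backgrounds also differed. Between hybrid WT and WT C57BL/6, 4 of 8 promoters were lower in the hybrid (Gadd45b, Gadd45g, Trp53 and Cdkn1b) and none was higher, with 0 higher at an unadjusted p under 0.05 and 4 called lower by both DESeq2 and limma voom. Among all promoters 18.7% were called, 6.98% higher and 11.8% lower. The 4 promoters called lie at the 85.1 (Trp53) to 93.2 (Gadd45g) percentile of level. The shares in this contrast were not split by level, so these counts cannot be compared within levels. With offsets that follow abundance Gadd45a was also called, higher at 0.16 (adjusted p = 0.0456), and with gene-end library sizes Cdkn2c was called lower at -0.34 (adjusted p = 0.0113). The sample names of the C57BL/6 and the hybrid libraries carry different prefixes, whose meaning the labels do not give, so strain and separate handling cannot be told apart here. The background and Tg comparisons share the 4 WT FVB x BALB/c libraries, and the background and KO comparisons share the 4 WT C57BL/6 libraries. Their values for each gene are therefore given side by side below and are not independent.

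All promoter windows have 1 length, so their CPM can be compared between genes. Gadd45a had the highest mean in KO (157 CPM), WT C57BL/6 (154) and WT FVB x BALB/c (161), and Gadd45g the highest in Tg (161). In WT FVB x BALB/c the Gadd45a libraries lay above those of Cdkn2c, the next gene, with no overlap, while the genes from Cdkn2c to Trp53 each overlapped the next. In the other 3 groups the leading genes overlapped with their neighbours: in KO and WT C57BL/6 the first 5 genes (Gadd45a, Gadd45g, Cdkn2c, Cdkn1b, Gadd45b) each overlapped the next, and in Tg the first 6 did (Gadd45g, Cdkn1b, Gadd45b, Gadd45a, Cdkn2c, Trp53). Trp53, Cdkn1c and Cdkn1a held the sixth, seventh and eighth place in every group. Cdkn1c and Cdkn1a stood apart from every other gene in each group without overlap.

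**Figure D2:**
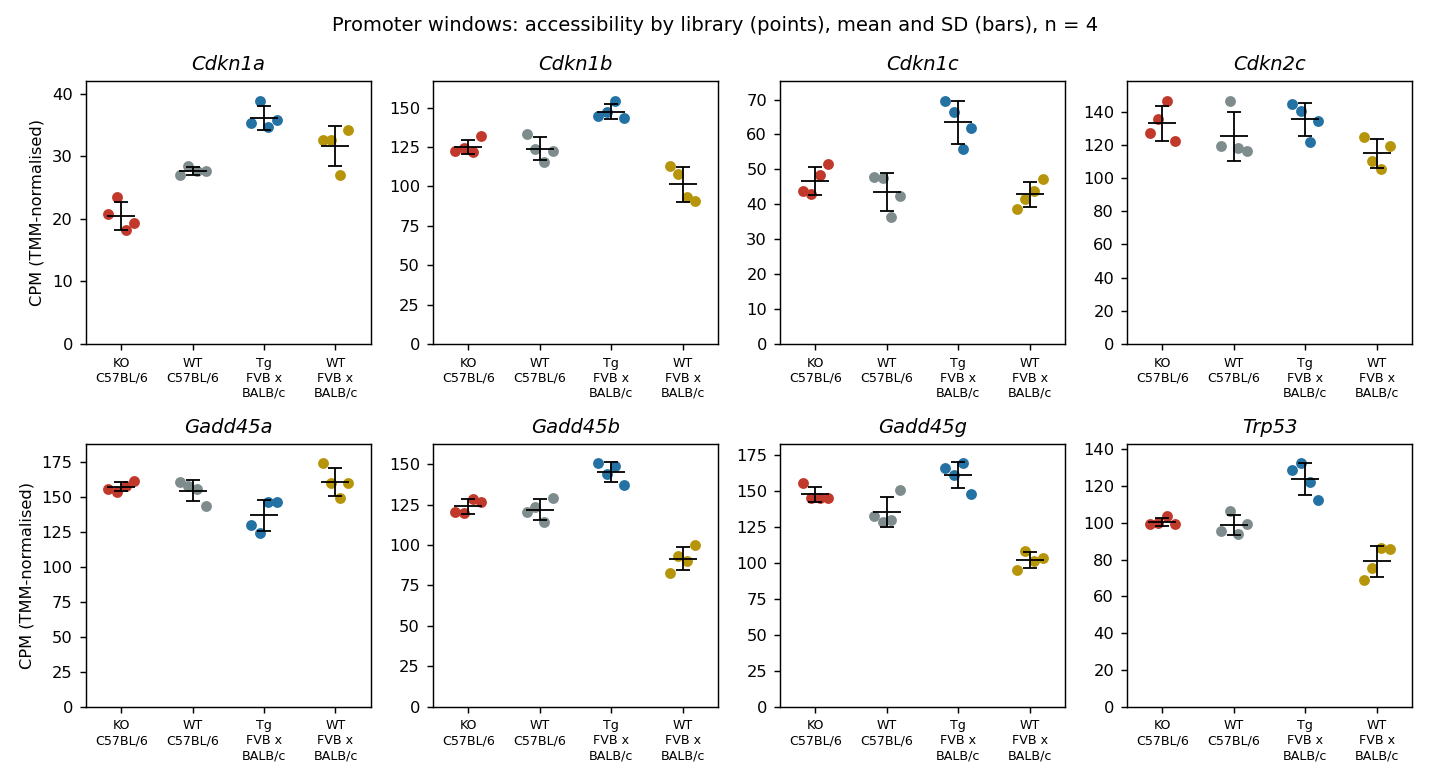
Accessibility of the 8 promoters in TMM-normalised CPM (vertical axes, from 0), 1 point per library, with the mean and SD of 4 libraries for KO, WT C57BL/6, Tg and WT FVB x BALB/c. Tg points lie above all WT FVB x BALB/c points at Cdkn1b, Cdkn1c, Gadd45b, Gadd45g, Trp53 and, narrowly, Cdkn1a, and KO points lie below all WT C57BL/6 points at Cdkn1a.

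Cdkn1a, the inhibitor best known as a target of p53, had the least accessible promoter window of the 8. Which of its 2 annotated starts that window covers is not given, so its promoter values hold for the window alone. KO libraries 1 to 4 held 20.8, 23.5, 18.2 and 19.3 CPM, against 26.96, 28.5, 27.6 and 27.6 in WT C57BL/6. All 4 KO values were below all WT values, but the share of all promoters with such a gap in KO was not counted. The promoter fell by 0.43 on the log2 scale (SE 0.13, edgeR adjusted p = 0.0331), to 0.741 of WT. The call was close to the threshold and rested on 47 to 75 counts per KO library and 60 to 78 per WT library. Leaving out 1 library at a time kept the change between -0.50 and -0.39, but the call was lost without any of WT C57BL/6 1, 2, 3 or 4 or KO 1, 3 or 4 (edgeR adjusted p 0.0599 to 0.103), and in DESeq2 (adjusted p = 0.0887). With gene-end library sizes the change was -0.35 (adjusted p = 0.228).

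On the hybrid background the Cdkn1a promoter held 35.3, 38.9, 34.7 and 35.7 CPM in Tg, against 32.6, 32.6, 26.97 and 34.2 in WT. The lowest Tg value lay just above the highest WT value. The log2 change was 0.20 (SE 0.11, 95% interval -0.02 to 0.41, edgeR adjusted p = 0.110). It passed the threshold with gene-end library sizes (0.61, adjusted p = 8.0e-06) and with offsets that follow abundance (0.29, adjusted p = 0.0224). The Tg and KO effects differed by 0.63 (SE 0.17, edgeR adjusted p = 0.0019). Between the backgrounds the change was 0.19 (adjusted p = 0.326).

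At the gene end of Cdkn1a the KO mean was above the WT mean, without passing the test. KO libraries held 135, 124, 90.7 and 134 CPM, against 86.4, 114, 105 and 85.2 in WT C57BL/6. The groups overlapped, KO 3 being within the WT range, and the log2 change of 0.35 (SE 0.20, edgeR adjusted p = 0.624) was not called. Per base, the gene-end window held 1.16 ± 0.159 times the reads of the promoter window in KO and 0.726 ± 0.0641 times in WT C57BL/6 (SD, n = 4 each), with KO at 0.978 to 1.30 and WT at 0.657 to 0.800. This ratio was 0.433 ± 0.128 in Tg and 0.433 ± 0.122 in hybrid WT. Over all windows the ratio was 0.213 in KO, 0.227 in WT C57BL/6, 0.197 in Tg and 0.262 in WT FVB x BALB/c. Cdkn1a was the only one of the 8 genes whose gene end was as open per base as its promoter in any group.

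Tg libraries held 78.0, 81.6, 126 and 64.8 CPM at the Cdkn1a gene end, against 56.3, 48.7, 63.2 and 52.1 in WT FVB x BALB/c. The groups did not overlap, and the log2 change of 0.66 (SE 0.23, edgeR adjusted p = 0.0609) was just outside the threshold. Without Tg 4, the lowest Tg library, it was 0.80 (adjusted p = 0.0202), and without Tg 3, the highest, 0.42 (adjusted p = 0.490). Between the backgrounds the Cdkn1a gene end was lower in the hybrid by 0.79 on the log2 scale (SE 0.24, edgeR adjusted p = 0.0361).

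Cdkn1b encodes p27, which holds cyclin E-CDK2 in check. Its promoter held 122, 125, 122 and 132 CPM in KO and 133, 124, 116 and 122 in WT C57BL/6. These groups overlapped fully (log2 change 0.02, 95% interval -0.11 to 0.14). Tg libraries held 145, 147, 155 and 143 CPM against 113, 108, 93.1 and 91.0 in WT FVB x BALB/c. Every Tg library lay above every WT library, a 1.43-fold rise (log2 change 0.52, SE 0.06, edgeR adjusted p = 1.3e-12). With offsets that follow abundance, the scaling that takes out the trend with level, the change was 0.28. The Tg and KO effects differed by 0.50 (edgeR adjusted p = 3.1e-06), and hybrid WT was below WT C57BL/6 by 0.27 (adjusted p = 0.00262).

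Its gene end rested on few reads, 28 to 33 per Tg library and 8 to 19 per WT FVB x BALB/c library. Tg libraries held 89.6, 89.8, 81.3 and 64.8 CPM, against 56.3, 27.8, 56.5 and 57.4 in WT. The groups did not overlap, and the change of 0.71 (SE 0.24, edgeR adjusted p = 0.0472) was called by a small margin. It was not called with library totals (0.54, adjusted p = 0.165), promoter library sizes (0.30, 0.368), offsets that follow abundance (0.67, 0.0955), the 2 groups fitted alone (0.68, 0.0565) or thinned reads (0.70, 0.135). Without WT FVB x BALB/c 2, which at 27.8 was far below the other WT libraries, it was 0.51 (adjusted p = 0.327), and the call was also lost without WT FVB x BALB/c 3 or 4 or Tg 1, 2 or 3 (adjusted p 0.0537 to 0.126).

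Cdkn1c encodes p57 and is an imprinted gene, expressed from the maternal copy. Tg libraries held 69.7, 66.4, 55.8 and 61.8 CPM at its promoter, against 38.6, 41.6, 43.9 and 47.2 in WT FVB x BALB/c. The lowest Tg library stood above the highest WT library, and the promoter was 1.498-fold higher (log2 change 0.58, SE 0.09, edgeR adjusted p = 1.2e-08). Among the 4 inhibitors this was the largest change in Tg, and it kept a value of 0.51 with offsets that follow abundance. KO libraries held 43.7, 43.1, 48.4 and 51.6 CPM, against 47.8, 47.5, 36.4 and 42.5 in WT C57BL/6, with overlap (log2 change 0.10, 95% interval -0.10 to 0.29). The Tg and KO effects differed by 0.49 (edgeR adjusted p = 0.00277), and the backgrounds by -0.05 (adjusted p = 0.790). At the gene end no contrast was called: WT FVB x BALB/c libraries alone ran from 24.3 to 89.8 CPM, wider than the 40.8 to 63.6 of Tg, on 7 to 27 counts each.

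Cdkn2c encodes p18, the INK4 inhibitor of the 8. Its promoter held 145, 140.4, 122 and 135 CPM in Tg and 125, 110.0, 106 and 119 in WT FVB x BALB/c. The groups overlapped, since Tg 3 lay below WT 1. The change of 0.23 (SE 0.07, edgeR adjusted p = 0.00177) was called, but it was 0.11 with library totals and 0.10 with a filter on mean counts, neither past the threshold, and -0.01 with offsets that follow abundance. In KO the values of 127, 136, 146 and 122 CPM lay within or near the 119, 147, 118 and 116 of WT C57BL/6 (log2 change 0.08, adjusted p = 0.555). Its gene end held 3 to 10 counts per library and did not pass the count filter, so it was not tested.

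Among the stress genes, Gadd45b and Gadd45g were higher in Tg and Gadd45a lower, the last turning to 0.19 with gene-end library sizes. Gadd45b libraries held 151, 144, 149 and 137 CPM in Tg against 82.9, 92.9, 90.1 and 99.9 in WT FVB x BALB/c, and every Tg library was at or above 137 while every WT library was at or below 99.9. It was 1.61-fold higher in Tg (log2 change 0.68, SE 0.07, edgeR adjusted p = 9.9e-19), the largest change of the 8 with TMM factors. With offsets that follow abundance Cdkn1c (0.51) and Trp53 (0.46) stood above it. Gadd45g libraries held 166, 161, 169 and 148 CPM in Tg against 95.2, 108, 101 and 103 in WT FVB x BALB/c. This gap was as clear, at 1.58-fold (log2 change 0.66, SE 0.06, edgeR adjusted p = 1.1e-18). Offsets that follow abundance gave 0.45 for Gadd45b and 0.42 for Gadd45g, and gene-end library sizes gave 1.10 and 1.09, so both stayed higher under the 5 scalings shown in the plot of Tg changes by scaling.

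Gadd45a, the classical p53 target of the family, held 129.9, 124, 146 and 146 CPM in Tg against 174, 159.8, 149 and 159 in WT FVB x BALB/c. The groups did not overlap, by a narrow gap between 146 in Tg and 149 in WT. The promoter fell by 0.24 on the log2 scale (SE 0.06, edgeR adjusted p = 0.000426), and by 0.48 with offsets that follow abundance, while gene-end library sizes turned it to 0.19 (adjusted p = 0.113). Gadd45a lay below the median of all promoters under each of these scalings. The median was -0.10 where Gadd45a was -0.24, -0.01 where it was -0.48, and 0.32 where it was 0.19. TMM and gene-end library sizes both scale all promoters of a library by 1 factor, so the gap to the median could hardly differ between them. Only the offsets that follow abundance could change that gap. Promoters of neighbouring level gave the opposite direction more often, as the shares in the highest class show. The Tg and KO effects on Gadd45a differed by -0.26 (edgeR adjusted p = 0.0113), with gene-end library sizes by 0.08 (adjusted p = 0.724), and without WT FVB x BALB/c 1, the highest library, by -0.21 (adjusted p = 0.0568).

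On C57BL/6 the Gadd45 promoters showed no called change. Gadd45a held 156, 153, 158 and 161 CPM in KO and 161, 158, 155 and 144 in WT C57BL/6. Gadd45b held 121, 119.6, 129 and 127 in KO and 121, 123, 114 and 129 in WT. Gadd45g held 156, 145, 145 and 145 in KO and 132, 128, 129 and 150.2 in WT. Only Gadd45g leaned to one side, with 3 of 4 WT libraries below every KO library, and its log2 change of 0.12 (SE 0.06) had an edgeR adjusted p of 0.289. The 95% intervals were -0.09 to 0.15 for Gadd45a and -0.11 to 0.15 for Gadd45b. Between the backgrounds, Gadd45b was lower in the hybrid by 0.44 (edgeR adjusted p = 3.9e-07) and Gadd45g by 0.42 (adjusted p = 6.4e-07), while Gadd45a stood at 0.07 (adjusted p = 0.510). Side by side, Gadd45b had 145 CPM in Tg, 91.4 in hybrid WT and 122 in WT C57BL/6, and Gadd45g had 161, 102 and 135 in the same groups. Of these 3 groups both were highest in Tg and lowest in WT FVB x BALB/c.

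Trp53 encodes p53. Its promoter held 129, 132, 122 and 113 CPM in Tg, against 69.0, 75.4, 86.1 and 85.5 in WT FVB x BALB/c. Every Tg library was above every WT library, a 1.59-fold rise (log2 change 0.67, SE 0.07, edgeR adjusted p = 2.4e-16). KO libraries held 99.4, 100.04, 104 and 99.5 CPM against 95.5, 107, 94.0 and 99.6 in WT C57BL/6. They lay within the WT range, with a log2 change of 0.02 (95% interval -0.12 to 0.16). The Tg and KO effects differed by 0.65 (edgeR adjusted p = 4.6e-08), and the hybrid WT was lower than the C57BL/6 WT by 0.35 (adjusted p = 0.00032). The neighbouring gene Wrap53 is read from the other strand, and the Trp53 window held 87.8% to 95% as many reads as the Wrap53 window, whose log2 change in Tg was 0.68. Whether the count windows of the pair overlap and share reads was not measured, so the value of Trp53 is uncertain as a value of that gene alone.

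**Figure D3:**
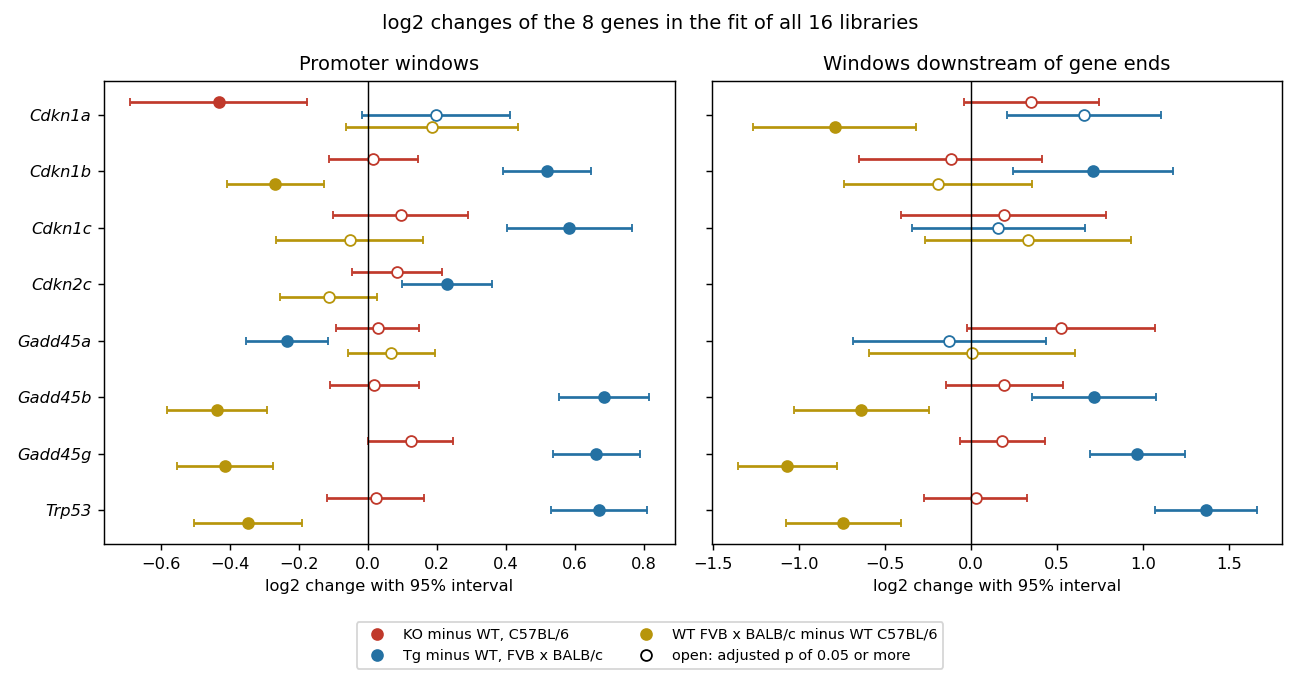
log2 changes (horizontal axes) with 95% intervals for the 8 genes at promoters (left) and gene ends (right), for KO minus WT, Tg minus WT and WT FVB x BALB/c minus WT C57BL/6; filled points passed the adjusted threshold of 0.05. Tg points of Cdkn1b, Gadd45b, Gadd45g and Trp53 are filled on the positive side in both panels, and their KO points are open; Gadd45a and Cdkn2c at promoters turn sign in Tg under another scaling, and Cdkn2c was not tested at its gene end.

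Gene ends held fewer reads than promoters. Of 7 gene ends tested, 4 were called higher in Tg (Trp53, Gadd45g, Gadd45b and Cdkn1b) and none lower, with 5 higher and 0 lower at an unadjusted p under 0.05. Over all 15186 gene ends tested 6.27% were called in Tg, and 4.63% were higher. The 4 gene ends called lie at the 80.5 (Cdkn1b) to 97.3 (Gadd45g) percentile of level. Shares of gene ends were not split by level in any contrast, so the counts in this paragraph cannot be compared within levels. In KO edgeR called 0 of 7, against 1.52% of all gene ends, with 0 at an unadjusted p under 0.05, 0 called by limma voom and 0 by DESeq2, which gave an adjusted p for 5 of the 7. The difference between the Tg and KO effects was called positive for Trp53 and Gadd45g, against 2.66% of all gene ends called and 2.11% positive. For Gadd45g that call was lost with promoter library sizes (0.45, adjusted p = 0.0908), offsets that follow abundance (0.44, 0.161) and thinned reads (0.60, 0.0654). Between the backgrounds 4 were lower in the hybrid (Gadd45g, Trp53, Cdkn1a and Gadd45b) and 0 higher, against 3.33% called, 2.18% lower and 1.15% higher over all gene ends. The calls of Cdkn1a and Gadd45b in the background contrast were near the threshold (adjusted p = 0.0361 and 0.0457), and both were lost with library totals, promoter library sizes, no count filter or thinned reads, while Gadd45g and Trp53 kept theirs. The Cdkn1a call was also lost without WT C57BL/6 1, 2 or 3 or any WT FVB x BALB/c library (adjusted p 0.0508 to 0.158), and that of Gadd45b without any library except WT C57BL/6 4 and WT FVB x BALB/c 1 (adjusted p 0.0503 to 0.258).

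The Trp53 gene end showed the largest change of the 15 windows tested. Tg libraries held 349.7, 340.0, 372 and 310.3 CPM against 166, 139, 103 and 115 in WT FVB x BALB/c. The lowest Tg library was above every WT library, a 2.57-fold rise (log2 change 1.36, SE 0.15, edgeR adjusted p = 1.6e-16) on 121 to 151 counts per Tg library. KO libraries held 234, 226, 205 and 237 CPM, against 222, 232, 224 and 215 in WT C57BL/6, with a log2 change of 0.03. The Tg and KO effects differed by 1.34 (SE 0.22, edgeR adjusted p = 5.6e-07), and the hybrid WT was lower than the C57BL/6 WT by 0.74 (adjusted p = 0.00103). With the library sizes of the promoters, Trp53 and Gadd45g were the 2 gene ends of the 8 genes that remained called in Tg.

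At the Gadd45g gene end Tg libraries held 318, 419, 387 and 322 CPM, against 205, 195, 163 and 172 in WT FVB x BALB/c, without overlap (log2 change 0.96, SE 0.14, edgeR adjusted p = 1.1e-09). KO libraries held 412, 497, 386 and 462, against 417, 405, 342 and 385 in WT C57BL/6, with overlap. Here too the hybrid WT was the lowest group, by 1.07 on the log2 scale against WT C57BL/6 (edgeR adjusted p = 2.0e-10). The Gadd45b gene end held 179, 141, 148 and 139 CPM in Tg against 113, 69.5, 99.8 and 78.2 in WT FVB x BALB/c, again without overlap (log2 change 0.71, SE 0.18, edgeR adjusted p = 0.00284). That call was lost without WT FVB x BALB/c 2 (0.60, adjusted p = 0.0535), with promoter library sizes (0.30, adjusted p = 0.207), with offsets that follow abundance (0.53, 0.0632) and with thinned reads (0.52, 0.142). These are short genes, spanning 1801 bp for Gadd45g, 2114 bp for Gadd45b and 2312 bp for Gadd45a in the RefSeq table, so their gene ends lie close to their promoters.

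The Gadd45a gene end was not called in Tg, where libraries held 34.7, 49.0, 36.9 and 37.1 CPM against 50.4, 48.7, 36.6 and 31.3 in WT FVB x BALB/c (log2 change -0.12, 95% interval -0.68 to 0.44). In KO it held 59.2, 58.8, 67.0 and 62.5 CPM against 48.9, 45.5, 48.2 and 31.5 in WT C57BL/6. The KO and WT groups did not overlap, yet the change of 0.52 (SE 0.28) had an edgeR adjusted p of 0.574, on 10 to 21 counts per library. Such a difference did not pass the test at this depth, and the share of all gene ends with such a gap in KO was not counted.

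**Figure D4:**
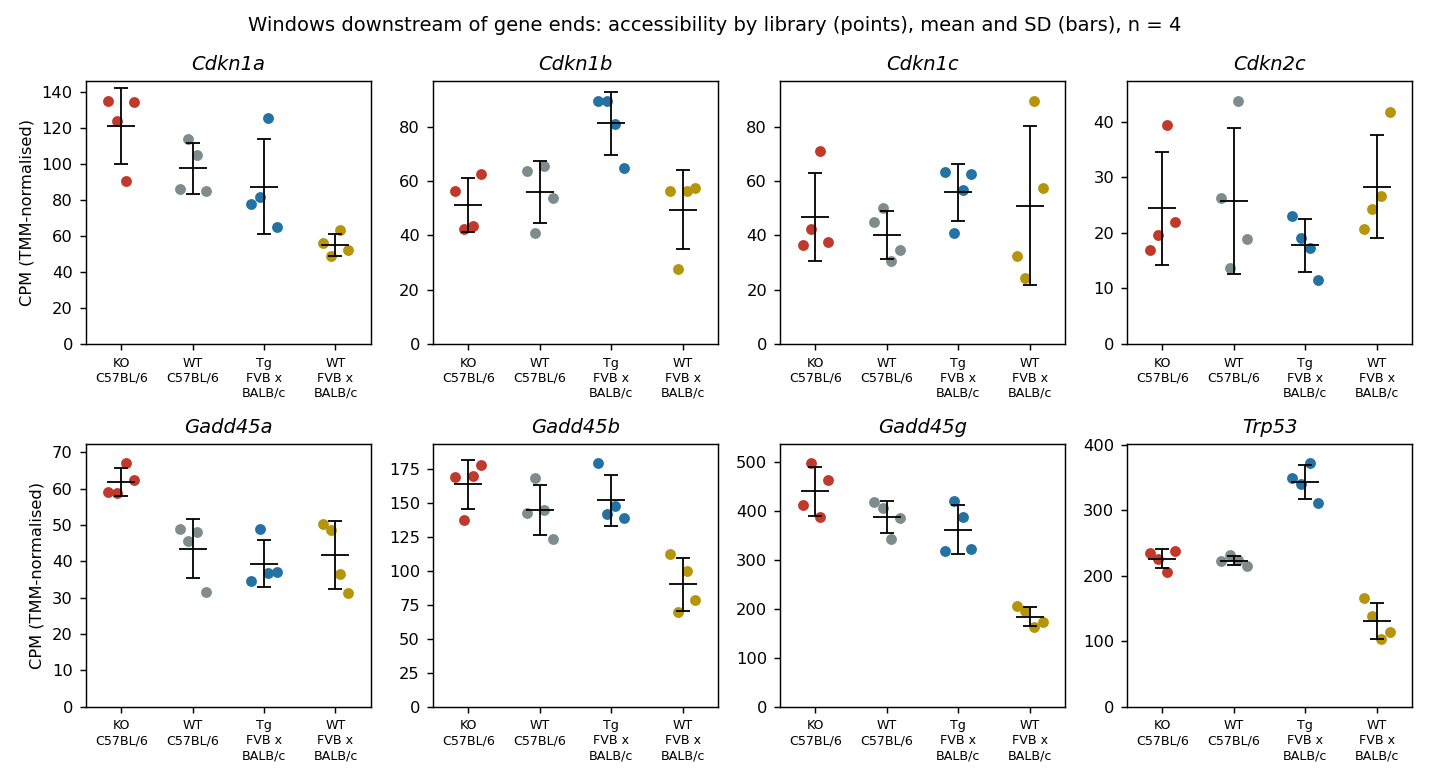
Accessibility of the windows downstream of the 8 gene ends in TMM-normalised CPM (vertical axes, from 0), 1 point per library with the mean and SD of 4 libraries per group. Tg points lie above all WT FVB x BALB/c points at Cdkn1a, Cdkn1b, Gadd45b, Gadd45g and Trp53, and Cdkn2c, with 3 to 10 counts per library, was not tested. The share of all gene ends where the groups do not overlap was not counted.

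**Figure D5:**
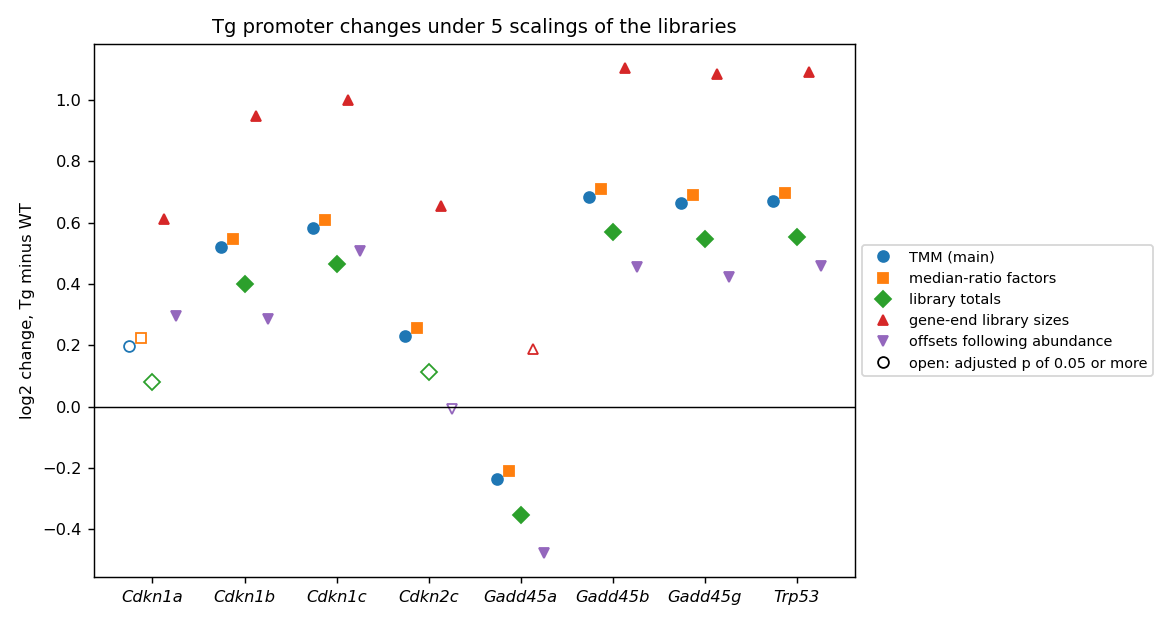
log2 change of the 8 promoters, Tg minus WT FVB x BALB/c (vertical axis), under 5 scalings of the libraries, with open symbols for an adjusted p of 0.05 or more. Gadd45b, Gadd45g, Trp53, Cdkn1b and Cdkn1c are above 0 under all 5, while Gadd45a is at 0.19 with gene-end library sizes and below 0 under the others, and Cdkn2c is at -0.01 with offsets that follow abundance and above 0 under the others.

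The genes around these inhibitors were read from lists, each set beside the median over all promoters (-0.10 in Tg and -0.01 in KO). Changes in Tg followed level, and no median was taken for promoters of like level, so the list medians are not matched for it. Of 6 other CDK inhibitors and pocket proteins, the retinoblastoma family that CDK activity inactivates, 4 rose and 0 fell in Tg (median 0.24). Rbl1, which encodes p107, held 66.0 CPM in Tg and 43.2 in WT FVB x BALB/c (log2 change 0.61, edgeR adjusted p = 9.7e-10). Rb1 stood at 0.34 and Cdkn2d, the INK4 gene for p19, at 0.31, but neither was called with offsets that follow abundance (0.11 and 0.07). None of the 6 was called in KO. Of 11 cyclins and kinases that the inhibitors bind, 5 rose and 2 fell in Tg (median -0.02), with Cks1b (0.38) and Ccne2 (0.34, but 0.11 and not called with abundance offsets) higher and Cdk6, a target of INK4 proteins, lower at -0.32 but at 0.10 with gene-end library sizes. In KO 1 of the 11 rose, the cyclin E gene Ccne2 (0.26, edgeR adjusted p = 0.00448, but 0.0582 with gene-end library sizes), and 0 fell. These and the KO counts of the lists below stand beside 3.99% of all promoters called in KO.

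Of 10 p53 regulators and family members 5 rose and 1 fell in Tg (median 0.22). The checkpoint kinase genes Atr (0.49) and Chek2 (0.37, but 0.14 and not called with abundance offsets) were higher, and Trp73, which encodes a p53 relative, was lower at -0.64 (-0.22 and not called with gene-end library sizes), with 24.4 CPM in Tg and 37.8 in WT FVB x BALB/c. In KO 1 of the 10 rose, Chek1 at 0.29 (edgeR adjusted p = 0.0255). Of 18 other p53 target genes 10 rose and 4 fell in Tg (median 0.29). Btg2, an antiproliferative gene, held 161 CPM in Tg and 96.6 in WT FVB x BALB/c (log2 change 0.77, edgeR adjusted p = 1.3e-22), and Plk2 (0.56) and Sesn2 (0.43) were also higher. In KO 0 of the 18 were called.

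Of 10 other stress response genes 8 rose and 0 fell in Tg (median 0.36), led by Ddit4 (0.74), an inhibitor of mTORC1, Atf4 (0.68), the transcription factor of the integrated stress response, and Hspa5 (0.57), an endoplasmic reticulum chaperone. In KO 2 of the 10 rose. Nupr1 held 47.1 CPM in KO and 31.6 in WT C57BL/6 (log2 change 0.58, edgeR adjusted p = 3.7e-05). Trib3 held 88.6 CPM in KO and 62.8 in WT C57BL/6 (0.50, adjusted p = 8.7e-07). Both are known as targets of ATF4, whose part here was not tested. The Atf4 promoter itself was not called in KO. Its Tg and KO effects differed by 0.88, more than its Tg change of 0.68. Of 7 GADD45 binding partners 3 rose and 0 fell in Tg (median 0.13): Mapk14, which encodes p38 alpha (0.80, edgeR adjusted p = 7.0e-21), Map3k4 (0.33, but 0.18 and not called with offsets that follow abundance) and Tdg (0.16, but -0.05 with offsets that follow abundance). In KO 1 of the 7 rose, the mitotic kinase gene Cdk1 (0.27, edgeR adjusted p = 0.0185). Between the backgrounds, the calls higher and lower in the hybrid WT, which is also the control of the Tg values above, were 0 and 6 of 10 stress genes, 1 and 4 of 18 p53 targets, 1 and 2 of 10 p53 regulators, 1 and 1 of 6 inhibitors and pocket proteins, 3 and 2 of 11 cyclins and kinases, and 1 and 3 of 7 GADD45 partners, beside 6.98% of all promoters higher and 11.8% lower. The shares in this contrast were not split by level. Among the called genes were Nupr1 (-0.94), Ccnd3 (0.68), Atf4 (-0.65), Ccnd2 (-0.64), Pmaip1 (-0.58), Fas (0.56) and Cdk6 (0.51), while Trp73 (0.45) was not called with gene-end library sizes (0.24). The counts of these lists in Tg stand beside 26.9% of all promoters higher and 30.5% lower (62.9% and 10.5% in the class of highest level), and they moved with the scaling. With offsets that follow abundance, the counts higher and lower in Tg were 5 and 0 of 10 stress genes, 5 and 3 of 18 p53 targets, 2 and 2 of 10 p53 regulators, 1 and 1 of 6 inhibitors and pocket proteins, 1 and 4 of 11 cyclins and kinases, and 1 and 1 of 7 GADD45 partners. In KO the same offsets left Trib3, Nupr1 and Ccne2 called, but not Chek1 or Cdk1, and called 1 stress gene lower, while gene-end library sizes left Trib3 and Nupr1 called but not Ccne2, Chek1 (adjusted p = 0.0577) or Cdk1 (0.0634).

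The promoters nearest in profile were found over the 16 libraries, by the root mean square (RMS) difference of log2 CPM after taking out each promoter's mean. The nearest to Trp53 was Wrap53, at 0.033, its neighbour on the other strand, and the next was Slc25a25 at 0.059. Whether the windows of Trp53 and Wrap53 share reads was not measured, so their match may be the same signal counted in both. The nearest to Gadd45b were Tnrc18 at 0.047 and Btg2 at 0.062, and to Gadd45g Gorasp2 at 0.066 and again Tnrc18 at 0.068. Gadd45a was nearest to Dcbld2 at 0.056 and Ibtk at 0.059, which were at -0.20 and -0.26 in Tg. Cdkn1b was nearest to Bzw1 at 0.051 and Cbx2 at 0.054, Cdkn1c to Mrpl45 at 0.087 and Senp8 at 0.092, and Cdkn2c to Rps6 at 0.077 and Laptm4b at 0.078. Cdkn1a, with the lowest level of the 8, had the most distant neighbours, Il4i1b at 0.113 and Nup62 at 0.116. These were at -0.31 and -0.30 in KO. Both lie on chromosome 7 and had similar levels (129.6 and 130.9 CPM), and whether their windows share reads was not measured. All neighbours were picked by their match over these same libraries. Their changes therefore resemble those of the 8 genes by choice and are no support for them. The median RMS difference to all promoters was 0.26 to 0.39 for the 8 genes.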

How the data were processed

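ATAC-seq counts of 16 libraries in 4 groups of 4 were used. The deposited values are raw counts of reads per window, made by the authors with featureCounts on build mm39, per the submitters' processing notes; its version, the aligner, the placement of the windows and the use of the Drosophila spike-in are not stated there or in the labels. Series tables held the same values as the 48 files of single libraries, and 20091 of 20113 gene IDs matched a symbol. Replicate libraries differed beyond sampling noise in all 24 pairs of each window class. Nothing in the labels says which cultures shared a litter, so p-values measure the spread between these embryos' cultures.

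Windows on chromosome Y, Xist and Tsix were left out (17 per class). Counts were filtered with filterByExpr, leaving 20008 promoters and 15186 gene ends, with a median of 49 to 158 and 8 to 17 counts per library. They were scaled with TMM and fitted with edgeR 4.0.16 (quasi-likelihood, 1 coefficient per group, all 16 libraries, R 4.3.3). P-values were adjusted by Benjamini-Hochberg over each class, with a threshold of 0.05. CPM use TMM library sizes, except those of chromosome Y, which use library totals. DESeq2 1.42.0, limma voom 3.58.1, other scalings and filters, thinned counts and each library left out were tried. The code was tested on simulated data. Named were the 8 genes, from each list at most 3 promoters per contrast with the smallest adjusted p among those called, and the 2 nearest profiles of each gene. Members and lists were chosen with earlier results of these data known. Counting intervals cover counting error only. Sample numbers did not pair the libraries.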

Additional observations from a re-analysis of the deposited data

Results flagged for a closer look

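Single libraries stood far from the other 3 of their group in 6 of 64 groups of 4 values, by Dixon's test at 95%; chance flags about 1 in 20 groups. At gene ends, Cdkn1b held 27.8 CPM in WT FVB x BALB/c 2, where the others held 56.3 to 57.4. Cdkn1c held 71.0 CPM at its gene end in KO 3, against 36.7 to 42.5 in the other KO libraries. Gadd45a held 49.0 CPM at its gene end in Tg 2, against 34.7 to 37.1 in the other Tg libraries. At promoters, Cdkn2c held 147 CPM in WT C57BL/6 2, where the others held 116 to 119. Gadd45g held 156 CPM in KO 1, with the other KO libraries at 145. Trp53 held 104 CPM in KO 3, with the others at 99.4 to 100.04. The gene-end values rest on 8 to 18 counts each.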

How the results depend on the processing

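Of 1640 log2 changes of the 8 genes under all alternatives, 1514 kept their direction and their side of the threshold, 64 lost the call, 6 gained it, 3 reversed, and 53 that were not called turned sign. The reversed values were Gadd45a in Tg (0.19) and in the difference (0.078), both with gene-end library sizes, and Cdkn2c in Tg (-0.0067) with offsets that follow abundance. The causes were not tested. The number of promoters called among the 8 in KO, 1 by the main test, was 0 with gene-end library sizes, in DESeq2 and with thinned counts. In the difference it was 4 with thinned counts, against 7. For gene ends in Tg it was 2 with promoter library sizes, abundance offsets or thinned counts, against 4, and in the difference 1 under the same settings, against 2. For gene ends between backgrounds it was 2 with library totals, promoter library sizes, no filter or thinned counts, against 4. Leaving out 1 library gave 0 to 1 promoters in KO, 7 to 7 in Tg, 6 to 7 in the difference and 4 to 4 between backgrounds, and at gene ends 0 to 0, 2 to 5, 2 to 2 and 2 to 4 in the same order of contrasts.

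Over all promoters, 798 were called in KO, against 371 with gene-end library sizes, 427 in DESeq2 and 317 thinned. In Tg 11470 were called, against 7232 with abundance offsets, 7330 with a mean count filter and 7479 thinned, in the difference 5926 against 3262 thinned, and between backgrounds 3749 against 6194 with gene-end library sizes and 2355 thinned. At gene ends, Tg had 952, against 2934 with promoter library sizes and 606 with abundance offsets, the difference 404 against 258 with abundance offsets, and KO 231 against 117 on autosomes only and 139 without WT C57BL/6 4. With gene-end library sizes, 62.5% of promoter calls were higher in KO (52.4% with TMM), 92.4% in the difference (57.4%) and 6.8% between backgrounds (37.3%). At gene ends with promoter library sizes, 31.5% of calls were higher in KO (44.2% with TMM), 9.41% in Tg (73.8%), 24.8% in the difference (79.2%) and 69.2% between backgrounds (34.6%). With library totals the share of promoter calls that were higher was 39% in KO, 39.4% in the difference and 51.8% between backgrounds, and at gene ends 44.9% in Tg, 58.9% in the difference and 44.7% between backgrounds. With abundance offsets it was 37.4%, 44.1% and 48.3% at promoters in KO, the difference and between backgrounds, and 34%, 45%, 45% and 49.5% at gene ends in KO, Tg, the difference and between backgrounds. With a replicate block for the sample numbers, 1 promoter of the 8 was called in KO, 7 in Tg, 7 in the difference and 4 between backgrounds, and no call of the 8 genes changed. Same-number correlations ran from -0.26 to 0.24, so the numbers were not taken as a pairing. The scalings of the pathway lists were chosen after seeing the data. Gene ends rest on fewer counts per window than promoters.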
